A study of Ovis aries with 15 samples.

Results

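Complex I, or NADH:ubiquinone oxidoreductase, is the entry point of the mitochondrial respiratory chain, and its genes were followed in sheep longissimus dorsi, the long muscle of the back, across birth. The members were the genes whose symbol begins with NDUF, taken from probe sets that the platform annotation pairs with that symbol alone. Where several probe sets named a gene, that with the highest log2 signal averaged over the 15 arrays stood for it. This gave 42 genes of 9155 on the array with a single symbol. They comprised 6 core subunits, 30 accessory subunits, 4 assembly factors and 2 genes, NDUFA4 and NDUFA4L2, that carry the name only. The symbols covered 57 probe sets of 24016. The assembly factors NDUFAF1, NDUFAF2, NDUFAF4 and NDUFAF7 were not analysed here, nor were the core subunits that mitochondrial DNA encodes.

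Complex I takes electrons from NADH, passes them along a chain of iron-sulfur clusters to ubiquinone, and pumps protons across the inner mitochondrial membrane. Core subunits are those shared with the bacterial enzyme. The nuclear-encoded ones sit in the arm that reaches into the matrix, and the mitochondrially encoded ones form the proton channels of the membrane arm. Accessory subunits surround both arms and stabilise them, and assembly factors help to build the enzyme without staying in it. Skeletal muscle relies on the complex for sustained aerobic contraction.

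Muscle RNA was taken from cross-bred Dorset, Suffolk and Rambouillet sheep at 5 stages, with 3 animals and 1 array per animal at each. The fetal stages were 80 d, 100 d and 120 d of development, 150 d stood for lambs 1 to 3 days after birth, and 230 d for lambs about 12 weeks old. Each stage is a separate set of animals, males apart from 1 female at 100 d and 1 at 120 d. The sex of the animal on a given array was not in the labels. The tissue was whole muscle, in which fewer cells of a type and less RNA per cell cannot be told apart. The array was designed for cattle and hybridised with sheep RNA. Values are signals on the linear scale of the MAS5 software, and a level is not compared between different probe sets.

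Of the probe sets, 15998 reached a signal of 50 on at least 3 arrays and were tested, and all 42 members were among them. The median signal of an array lay between 51.4 and 69.4, and replicate arrays correlated at 0.891 to 0.948. Of 12 muscle fibre markers 9 were on the array. None of them had a mean signal under 50 at any stage, and their summed signal was 122454 to 155380 at 120 d, 179881 to 271387 at 150 d and 264182 to 360900 at 230 d. MYF5, the 1 satellite cell marker measured, had a mean under 50 at every stage. The summed signal of 5 blood markers was 541 to 1235 at 150 d and 13386 to 14357 at 120 d. That of 6 fibroblast markers was 43252 to 70357 at 150 d and 63932 to 66721 at 120 d. For 5 endothelial markers it was 1663 to 3148 at 150 d and 5106 to 6146 at 120 d, for 4 adipocyte markers 668 to 1206 and 138 to 323, for 4 leukocyte markers 176 to 226 and 224 to 284, and for 2 nerve markers 251 to 331 and 640 to 738, in the same order of stages. In that interval limma called MB higher of the 9 muscle fibre markers, FABP4 higher of 3 adipocyte markers tested, 3 of 5 blood and 3 of 5 endothelial markers lower (CDH5, PECAM1 and TEK among the endothelial ones), CD3D lower of 3 leukocyte and S100B lower of 2 nerve markers tested, and none of the 6 fibroblast markers. The hybridisation controls, transcripts added in a set amount, had a geometric mean of 1139 to 1570 at 150 d and of 677 to 918 at 120 d. For the actin control, 3' over 5' signal averaged 1.89 in the 80 d fetuses, 1.53 in those of 100 d, 1.03 in those of 120 d, 0.910 in the 150 d lambs and 0.995 in the 230 d lambs. Some results below are also given on the scale of the hybridisation controls. The part of the other shifts in the results was not tested.

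The complex I genes stood low in the fetus and high after birth. In 32 of 36 subunits every postnatal array lay above every fetal array, against 6.78% of all probe sets tested. This held for all 6 core subunits, 26 of 30 accessory subunits and 3 of 4 assembly factors. The mean signal was highest at 150 d for 29 subunits and at 230 d for 7. It was lowest at 80 d for 26 subunits, at 100 d for 8, and at 120 d and 230 d for 1 each.

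**Figure D1:**
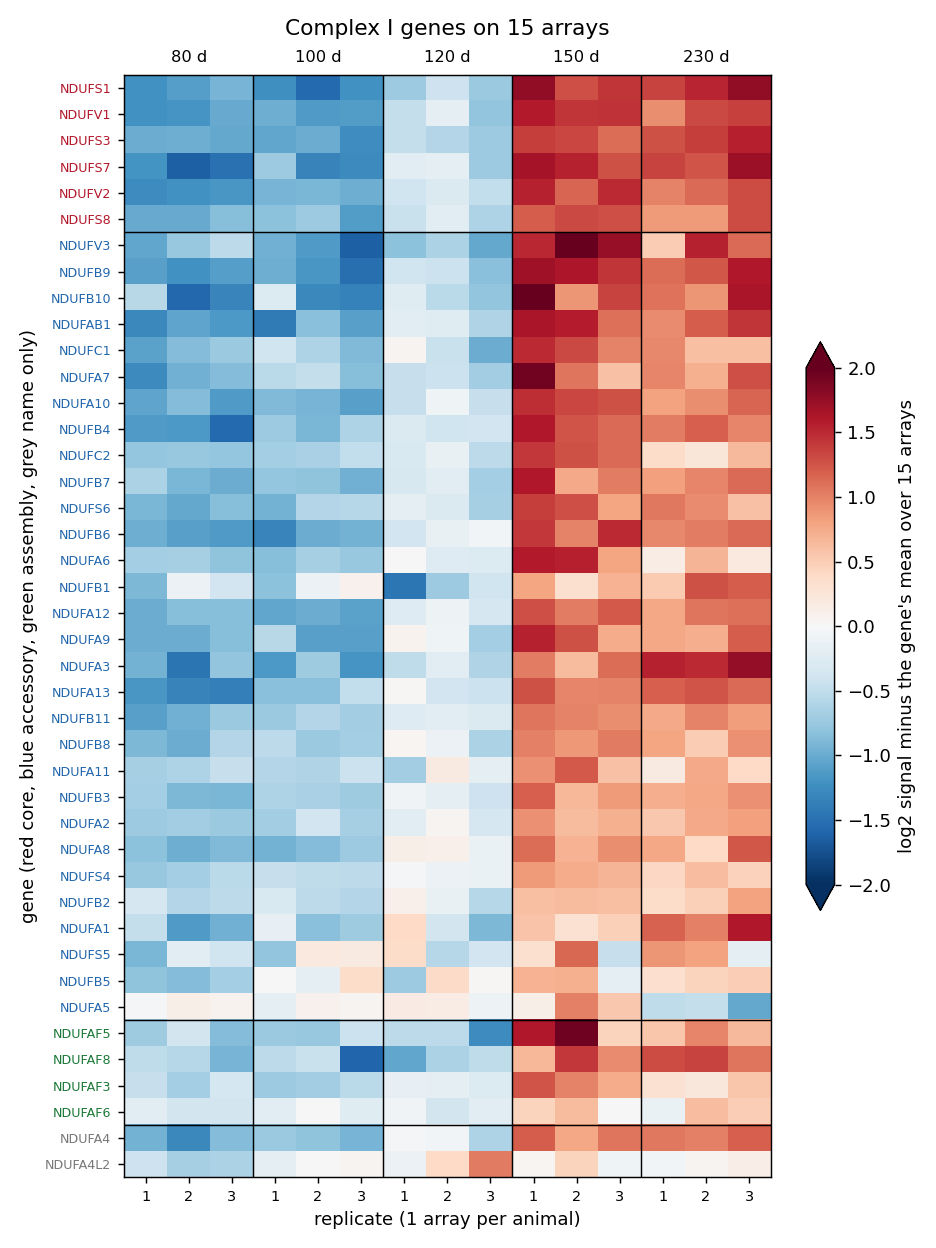
Log2 signal of the 42 genes (rows, by class and then by change between 120 d and 150 d) on the 15 arrays (columns, by stage and replicate), each minus the gene's mean over all arrays and shown between -2 and 2. Most rows are blue on the 9 fetal arrays and red on the 6 postnatal arrays, and NDUFA5 and NDUFA4L2 are among those that are not.

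The main question of the design was how neighbouring stages differ, and most of these genes passed the test in the interval across birth. Between 120 d and 150 d, 34 of 42 genes rose and 0 fell (limma, Benjamini-Hochberg adjusted p under 0.01 over all probe sets). Of all probe sets, 4.41% rose and 6.77% fell in that interval. The 3 values at 150 d lay above the 3 at 120 d in 37 genes and below them in 0, against 14.3% and 22.9% of all probe sets. The median log2 fold change of the 42 genes was 1.47, and that of all probe sets was -0.15. At an unadjusted p under 0.05, 38 members were higher and 0 lower, against 5614 of 15998 probe sets in either direction.

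The size of this step depended on the scale. With arrays scaled to the hybridisation controls, the median of all probe sets was -0.81, that of the 36 subunits was 0.84, and 13 of the 42 genes rose and 0 fell. Among all probe sets 706 rose and 1083 fell as the signals were deposited, against 783 and 657 with array medians set equal, 721 and 776 after quantile normalization, and 154 and 3783 on the scale of the hybridisation controls. When only the 6 arrays of 150 d and 120 d were fitted, 0 members and 2 probe sets in all passed at 0.01, and in the alternatives other than these the count of members was 28 or more.

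All 6 core subunits rose between 120 d and 150 d, by a median of 1.87 on the log2 scale. Their log2 fold changes lay close together, between 1.71 and 2.12. NDUFS1, the largest core subunit and a carrier of iron-sulfur clusters, had signals of 931, 996 and 1132 at 80 d, 919, 726 and 926 at 100 d and 1298, 1604 and 1279 at 120 d. Its signals were 7293, 5230.4 and 5751 at 150 d and 5476, 6145 and 7323 at 230 d. The lowest postnatal value, 5230.4, lay above the highest fetal value, 1604, and fetal and postnatal animals did not overlap. NDUFS1 rose by 2.12 (standard error 0.20, adjusted p = 4e-05).

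NDUFV1 holds the flavin at which NADH is oxidised, and NDUFV2 carries an iron-sulfur cluster beside it. NDUFV1 had signals of 785, 795 and 898 at 80 d, 919.7, 829 and 836 at 100 d, 1296, 1571 and 1050 at 120 d, 5401, 4877 and 4949 at 150 d and 3441, 4506 and 4679 at 230 d. Every postnatal animal lay above every fetal one, and 120 d replicate 3 was the lowest of its stage. NDUFV1 rose by 1.98 between 120 d and 150 d (limma, standard error 0.19, adjusted p = 4.3e-05). NDUFV2 had signals of 2132, 2219 and 2276 at 80 d, 2693, 2716 and 2587 at 100 d, 3878, 4169.5 and 3649.5 at 120 d, 14866, 11508 and 14441 at 150 d and 10216, 11187 and 12672 at 230 d. The 3 fetal stages followed each other without overlap, as did 120 d and 150 d. Of the neighbouring steps, the single-interval test of limma was passed only by the one across birth, with a rise of 1.80 (standard error 0.16, adjusted p = 3.6e-05).

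NDUFS3, NDUFS7 and NDUFS8 form the part of the matrix arm that leads to the ubiquinone site, and NDUFS7 and NDUFS8 hold its iron-sulfur clusters. NDUFS3 had signals of 1446, 1463 and 1411 at 80 d, 1391, 1436 and 1213 at 100 d, 2065, 1912 and 1726 at 120 d, 7471, 7222 and 6187 at 150 d and 6949, 7456 and 8385 at 230 d. The fetal values spread little within a stage, and the values at 150 d and 230 d overlapped. NDUFS3 rose by 1.87 across birth (limma, standard error 0.16, adjusted p = 2.7e-05). NDUFS7 had signals of 1136, 846 and 932 at 80 d, 1572, 1031 and 1076 at 100 d, 2239, 2296 and 1570 at 120 d, 8256, 7556 and 6329 at 150 d and 6682, 6216 and 8566 at 230 d. Replicate 3 was again the lowest at 120 d, and 1 value at 100 d exceeded it. NDUFS7 rose by 1.87 (standard error 0.23, adjusted p = 0.00024). NDUFS8 had signals of 738, 737 and 824 at 80 d, 837, 894 and 682 at 100 d, 1086, 1269 and 969 at 120 d, 3433, 3718 and 3639 at 150 d and 2687, 2678 and 3664 at 230 d. Its values at 150 d lay closest together of the core subunits, and it rose by 1.71 (standard error 0.18, adjusted p = 9.9e-05).

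Of the 30 accessory subunits, 24 rose between 120 d and 150 d and 0 fell, with a median log2 fold change of 1.41 over all 30. All 30 had a positive log2 fold change, except NDUFA5, NDUFB5 and NDUFS5 on the scale of the hybridisation controls, and as deposited the values lay between 0.48 and 2.61. They were less uniform than the core subunits, with an SD across genes of 0.49 against 0.14 on the log2 scale. This spread also holds the error of each estimate and the choice of probe set, and their part was not tested. Standard errors were 0.14 to 0.44 in accessory and 0.16 to 0.23 in core subunits. The lowest accessory value was that of NDUFA5, whose second probe set gave 2.30, and a second probe set of the core subunit NDUFS1 gave 0.69. The log2 fold change of 24 accessory subunits lay below that of NDUFS8, the lowest core subunit, and that of 6 above it. A fold of at least 2 was seen in 22 of 30 accessory and 6 of 6 core subunits.

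**Figure D2:**
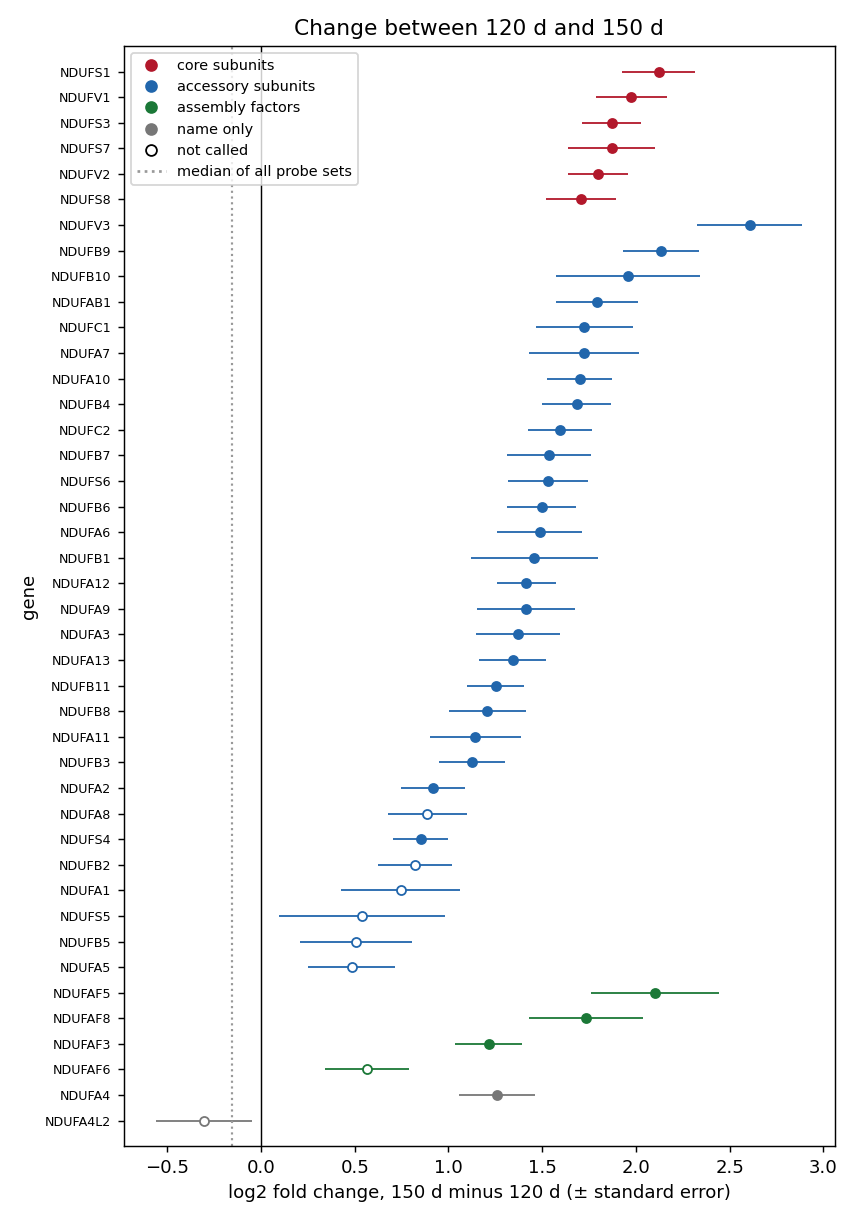
Log2 fold change between 120 d and 150 d of each gene with its standard error, for 42 genes coloured by class, where filled points passed the test (adjusted p under 0.01). The 6 core subunits lie between 1.71 and 2.12, accessory subunits spread between 0.48 and 2.61, and the dotted line marks the median of all probe sets at -0.15.

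The class difference was also taken array by array. Each gene's log2 signal was taken relative to its mean over the 15 arrays, which balances its values around 0, and the median over a class was formed on each array. The core median minus the accessory median was -0.295, -0.236 and -0.186 at 80 d, -0.218, -0.372 and -0.454 at 100 d, -0.227, -0.046 and -0.288 at 120 d, 0.284, 0.328 and 0.428 at 150 d, and 0.356, 0.437 and 0.420 at 230 d. The core median was thus relatively lower on all 9 fetal arrays and relatively higher on all 6 postnatal arrays. With this centring, a class that rises more across birth lies lower before it and higher after it on average. The change of sign therefore restates the fold changes of the classes and is no further support for a difference. These values are a description, with no test. By position in the enzyme, 14 of 15 genes of the matrix arm and 15 of 20 of the membrane arm rose, with medians of 1.71 and 1.36. The 9 accessory subunits of the matrix arm alone had a median of 1.42, close to the 1.36 of the membrane arm and below the 1.87 of the core subunits. NDUFAB1 was left out of this split, as it belongs to both arms.

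**Figure D3:**
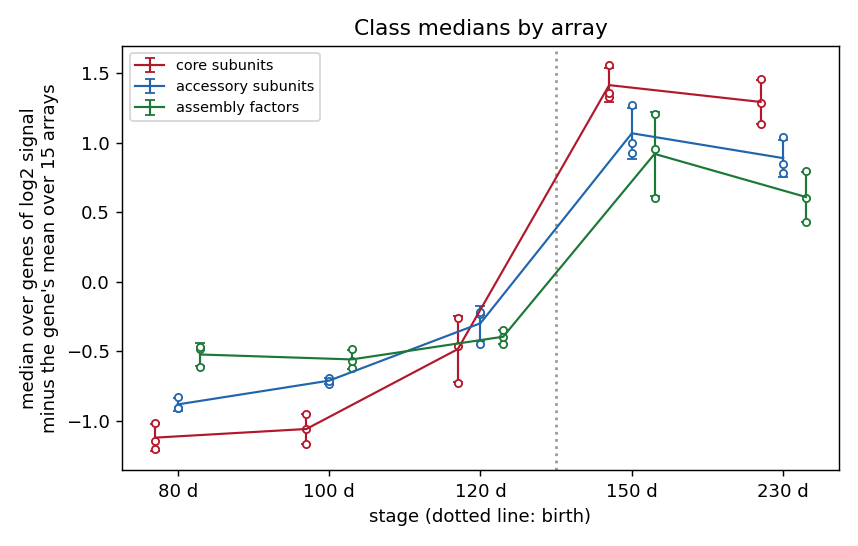
Median over the genes of a class of the log2 signal minus each gene's mean over 15 arrays, by stage, with open points for single arrays and lines and bars for the mean and SD of 3 arrays. The core median lies below the accessory median on the fetal arrays and above it on the postnatal arrays. The centring brings this about on average for a class that rises more across birth.

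The largest rise of any member was in NDUFV3, an accessory subunit bound near NDUFV1 in the matrix arm. Its signals were 248, 304 and 358 at 80 d, 263, 234 and 166 at 100 d, 291, 329 and 253 at 120 d, 1464, 2174 and 1723 at 150 d and 726, 1488 and 1121 at 230 d. No fetal array exceeded 358 and no postnatal array was under 726, and 230 d replicate 1 was the lowest after birth. NDUFV3 rose by 2.61 (limma, standard error 0.28, adjusted p = 9.4e-05). NDUFB9, a membrane arm subunit of the LYR protein family, had signals of 1086, 992 and 1076 at 80 d, 1175, 1025 and 807 at 100 d, 1746, 1712 and 1296 at 120 d, 7491, 7033 and 6212 at 150 d and 4979.6, 5443 and 7011 at 230 d. The fetal and postnatal values did not overlap, and NDUFB9 rose by 2.13 (standard error 0.20, adjusted p = 4.3e-05).

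NDUFB10 lies on the outer face of the membrane arm. Its signals were 2646, 1305 and 1548 at 80 d, 3196, 1590.2 and 1522 at 100 d, 3277, 2661 and 2248 at 120 d, 16174, 7167 and 9913 at 150 d and 8251, 7139 and 11984 at 230 d. Replicate 1 was the highest animal at 80 d, 100 d, 120 d and 150 d, although a number does not mark a shared animal. NDUFB10 rose by 1.96 (standard error 0.38, adjusted p = 0.0033), and its limma call was lost without 120 d replicate 2, 120 d replicate 3 or 150 d replicate 1. NDUFAB1, the mitochondrial acyl carrier protein, had signals of 1031, 1214 and 1138 at 80 d, 948, 1408 and 1182 at 100 d, 2149, 2136 and 1659 at 120 d, 7805, 7471 and 5425 at 150 d and 4833, 5858 and 6747 at 230 d. The lowest value after birth was 4833 and the highest before it 2149, and NDUFAB1 rose by 1.79 (standard error 0.22, adjusted p = 0.0002). NDUFC1, a small subunit of the membrane arm, had signals of 391, 451 and 492 at 80 d, 621, 536 and 447 at 100 d, 850, 607 and 414 at 120 d, 2313, 2047 and 1627 at 150 d and 1604, 1251 and 1245 at 230 d. At 120 d its values spread more widely than at 80 d, with replicate 3 within the range of 80 d, and NDUFC1 rose by 1.72 (standard error 0.26, adjusted p = 0.00066).

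The other 19 accessory subunits that rose had log2 fold changes between 0.85 (NDUFS4, a matrix arm subunit needed for a stable complex) and 1.72 (NDUFA7, another matrix arm subunit). They included the membrane arm genes NDUFB4 (1.68), NDUFC2 (1.60) and NDUFB6 (1.50) and the matrix arm genes NDUFS6 (1.53), NDUFA12 (1.42) and NDUFA9 (1.41). NDUFB1, a small membrane arm subunit, was the least secure call, with signals of 615, 441 and 573 at 150 d and 130.4, 215 and 267 at 120 d. It rose by 1.46 (adjusted p = 0.0084) and lost its limma call in 12 of 15 fits that each left out 1 array. NDUFA11 lost its call in 4 such fits, without 120 d replicate 1 or 3 or 150 d replicate 1 or 2. NDUFA2 lost it without 120 d replicate 1 or 3, and NDUFA9 without 120 d replicate 3 or 150 d replicate 2.

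The 6 accessory subunits that did not pass were NDUFA1, NDUFA5, NDUFA8, NDUFB2, NDUFB5 and NDUFS5. NDUFA8 and NDUFB2 were near the threshold, with log2 fold changes of 0.89 and 0.82 (limma, adjusted p = 0.0101 and 0.0107), and in both the 3 values at 150 d lay above the 3 at 120 d. NDUFA1, a small membrane arm subunit, had signals of 4676, 3898 and 4369 at 150 d and 4147, 2426 and 1676 at 120 d, where 1 animal lay within the 150 d range. Its change was 0.75 (adjusted p = 0.11).

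NDUFS5 and NDUFB5, both of the membrane arm, gave scattered or weak signals. NDUFS5 had signals of 714, 1156 and 1014 at 80 d, 781, 1546 and 1524 at 100 d, 1724, 905 and 1030.4 at 120 d, 1683, 2986 and 978 at 150 d and 2477, 2359.5 and 1178 at 230 d. At 150 d replicate 3 lay below all but 1 of the 120 d values, and replicate 2 above all of them. The log2 fold change of NDUFS5 was 0.54 (standard error 0.44, adjusted p = 0.43). NDUFB5 had signals of 46.1, 44.4 and 50.8 at 80 d, 81, 70.8 and 104 at 100 d, 49, 105 and 82.7 at 120 d, 131, 133 and 70.7 at 150 d and 102, 109.8 and 114 at 230 d. Its values ran between 44.4 and 133, with 3 under the minimum of 50, and the log2 fold change was 0.51 (standard error 0.30, adjusted p = 0.25).

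NDUFA5, a matrix arm subunit that lies against NDUFS3, depended on the probe set. The probe set that represents it had signals of 2429.8, 2694 and 2609 at 80 d, 2206, 2655 and 2604 at 100 d, 2793, 2772 and 2328 at 120 d, 2696, 5028 and 3639 at 150 d and 1756, 1802 and 1234 at 230 d. It lay between 2206 and 2793 in fetal life and was highest in 150 d replicate 2 and lowest at 230 d. Its change between 120 d and 150 d was 0.48 (limma, standard error 0.23, adjusted p = 0.16). A second probe set of the gene had signals of 705, 1013 and 1201 at 80 d, 910, 993 and 1037 at 100 d, 1474, 1477 and 1294 at 120 d, 7934, 6054 and 6943 at 150 d and 4736, 6533 and 5721 at 230 d. Here all 6 postnatal values lay far above the 9 fetal ones, as in the core subunits, and it rose by 2.30 (standard error 0.21, adjusted p = 4e-05). The remaining one had signals of 91.6, 50.4 and 68.6 at 150 d and 33.8, 26.5 and 20.3 at 120 d and was under the minimum of 50 on all fetal arrays, with a log2 fold change of 1.37 (adjusted p = 0.016).

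Other members also had probe sets that differed. In all, 12 genes had several, and of the 15 probe sets not used to represent a gene 8 were tested. Of these 8, 3 rose between 120 d and 150 d and 5 did not pass, with 6 log2 fold changes above 0 and 2 below. The second probe sets of NDUFAF3 and NDUFAF5 rose by 1.69 and 1.50, as did the first ones. That of NDUFS1 gave 0.69 (limma, adjusted p = 0.15) against 2.12 for the probe set used. The second probe set of NDUFB2 had signals of 354, 272 and 389 at 150 d and 322, 685 and 341 at 120 d, which overlapped, and a log2 fold change of -0.33. The other value below 0 was that of NDUFA11, at -1.09 (limma, standard error 1.04, adjusted p = 0.5) against 1.14 for the probe set used. Its signals were weak and scattered, at 49.7, 2.5 and 27.9 at 150 d and 103.3, 22.4 and 14.5 at 120 d.

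**Figure D4:**
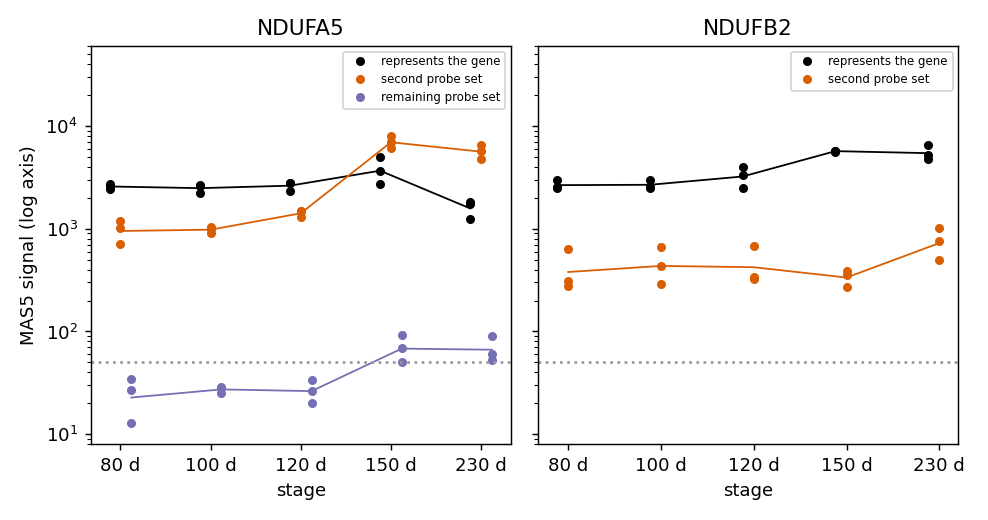
Signals on a log axis of the 3 probe sets of NDUFA5 (left) and the 2 of NDUFB2 (right) at the 5 stages, with points for single arrays, lines through the geometric means and a dotted line at the signal minimum of 50. For NDUFA5 the second probe set is higher after birth on every array, while the one that represents the gene is lowest at 230 d.

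Of the 4 assembly factors, 3 rose between 120 d and 150 d, with a median of 1.47 over the 4. NDUFAF5, which modifies the core subunit NDUFS7 during assembly, had signals of 95.1, 120.2 and 85.4 at 80 d, 93.5, 92.4 and 115 at 100 d, 109, 108 and 65.2 at 120 d, 472, 603 and 213 at 150 d and 229.6, 305 and 245 at 230 d. The highest fetal value was 120.2 and the lowest postnatal one 213, with the widest spread at 150 d. NDUFAF5 rose by 2.10 (limma, standard error 0.34, adjusted p = 0.0011). NDUFAF8, which acts with NDUFAF5, had signals of 155, 148 and 116 at 80 d, 154, 162 and 73.6 at 100 d, 107, 142 and 154 at 120 d, 347, 589 and 422 at 150 d and 543, 562 and 461 at 230 d. Fetal and postnatal values did not overlap, and NDUFAF8 rose by 1.73 (standard error 0.30, adjusted p = 0.0018).

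NDUFAF3 acts early, in building the part of the matrix arm near ubiquinone. Its signals were 714, 612 and 767 at 80 d, 591, 605 and 674 at 100 d, 869, 851 and 806 at 120 d, 2335, 1946 and 1642 at 150 d and 1206, 1139 and 1439.5 at 230 d. The 3 values at 230 d lay below the 3 at 150 d and above all fetal values. NDUFAF3 rose by 1.22 (standard error 0.18, adjusted p = 0.00059) across birth, and its later change, 230 d against 150 d, was -0.64 (limma, adjusted p = 0.051). NDUFAF6, another early-acting factor, had signals of 133, 119 and 119.5 at 80 d, 134, 154 and 129.5 at 100 d, 146, 119.7 and 134 at 120 d, 209, 238 and 153 at 150 d and 141, 236 and 217 at 230 d. The 3 values at 150 d lay just above those at 120 d, and the log2 fold change of 0.57 did not pass (standard error 0.22, adjusted p = 0.091).

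Assembly factors without the NDUF name formed a further list of 12, of which 7 were measured. ECSIT and TMEM70 rose and the other 5 did not pass, with a median of 0.80. ECSIT, a partner of NDUFAF1 in assembly, averaged 1364 ± 179 at 150 d, against 269.9 ± 52.6 at 120 d (SD, n = 3), and rose by 2.35 (limma, standard error 0.19, adjusted p = 2.5e-05). TMEM70, known also for assembly of ATP synthase, averaged 768 ± 173 at 150 d and 249 ± 49.2 at 120 d and rose by 1.61 (standard error 0.25, adjusted p = 0.00085). ACAD9, which forms a complex with ECSIT, averaged 121 ± 12.8 at 150 d and 107 ± 16.1 at 120 d, and its log2 fold change was 0.19 (adjusted p = 0.67).

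The 2 genes that carry the name only differed in their values. NDUFA4, now placed in cytochrome c oxidase, had signals of 5841, 4588 and 6155 at 80 d, 6718, 6452 and 5900.1 at 100 d, 10898, 10816 and 7326 at 120 d, 25980.1, 19248 and 23578 at 150 d and 23234, 22508 and 25719 at 230 d. It resembled the subunits, with no overlap across birth, and rose by 1.26 (limma, standard error 0.20, adjusted p = 0.0011). NDUFA4L2, a related gene known to be induced by low oxygen, had signals of 85.5, 71.7 and 72.9 at 80 d, 99.4, 113 and 118 at 100 d, 104, 149.9 and 232 at 120 d, 117, 154 and 107 at 150 d and 109, 119 and 124 at 230 d. Its highest value was 120 d replicate 3, and the 120 d and 150 d values overlapped. The log2 fold change of NDUFA4L2 was -0.30 (standard error 0.26, adjusted p = 0.44), the only negative value among the 42. Its second probe set did not follow the first, with signals of 49, 33.2 and 40.5 at 80 d, 74.4, 23.3 and 27.9 at 100 d, 67.8, 83.7 and 59.3 at 120 d, 120.3, 57.2 and 116 at 150 d and 138, 209 and 156 at 230 d. The values at 230 d lay above all others. This probe set gave 0.42 across birth (limma, adjusted p = 0.51) and 1.25 for 230 d against 120 d (adjusted p = 0.039), neither past the threshold. The mean of both probe sets gave 0.06 across birth.

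Subunits of the other respiratory complexes gave a frame for this step. Of 39 tested genes of complexes II to V, 29 rose between 120 d and 150 d and 0 fell, with a median of 1.16. By complex these were 4 of 4 genes of complex II (median 1.41), 7 of 9 of complex III (1.43), 6 of 11 of complex IV (0.99) and 12 of 15 of complex V (1.15). Of 8 genes for mitochondrial proteins outside the chain, such as citrate synthase and the porins, 6 rose, with a median of 1.22. The core subunits of complex I had a median of 1.87 and the accessory subunits of 1.41, and the difference from the other complexes was not tested.

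Within fetal life the median log2 fold changes of the 42 genes were smaller, at 0.10 and then 0.44. Between 80 d and 100 d no member passed, against 0.106% of all probe sets higher and 0.0188% lower. At an unadjusted p under 0.05 it was 3 of 42 members higher and 0 lower, against 1319 of 15998 probe sets in either direction. The 3 values did not overlap in 8 members higher at 100 d and 1 lower, against 10.1% and 8.96%. The methods of the study name a moderated F-statistic over the intervals as the test. By limma's F-statistic 4 members were called higher (NDUFA13, NDUFB4, NDUFB11 and NDUFV2), against 2.93% of all probe sets.

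Between 100 d and 120 d again no member passed with limma's test of the single interval, against 0.0375% of all probe sets higher and 0.0188% lower. At an unadjusted p under 0.05 it was 22 of 42 members higher and 0 lower, against 1190 of 15998 probe sets in either direction. Yet 37 of 42 log2 fold changes were positive, with the median of 0.44 beside -0.04 for all probe sets. The 3 values at 120 d lay above the 3 at 100 d in 22 members and below them in 0, against 6.88% and 9.09%. This held for 5 of 6 core and 15 of 30 accessory subunits and for 1 of 4 assembly factors, and the class medians were 0.56, 0.42 and 0.03. By the F-statistic 23 members were called higher and 0 lower, against 3.49% of all probe sets called higher. They included all 6 core subunits and none of the assembly factors. The F-statistic is formed over the 4 intervals together, and the postnatal arrays therefore weigh on its calls in this one.

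The largest log2 fold changes between 100 d and 120 d were those of NDUFB6 (0.89, adjusted p = 0.091), NDUFA8 (0.87, adjusted p = 0.2) and NDUFA12 (0.80, adjusted p = 0.09), by limma. NDUFA8, an accessory subunit on the outer face of the membrane arm, had signals of 4574, 4096 and 4360.3 at 80 d, 4198, 4418 and 4894 at 100 d, 8748, 8625 and 7338 at 120 d, 17516, 13046 and 15370.5 at 150 d and 13756, 10678 and 19139.6 at 230 d. Neither step overlapped, and the log2 fold change was 0.87 from 100 d to 120 d and 0.89 from 120 d to 150 d. Over the whole fetal span, 120 d against 80 d, 1 member rose and 0 fell, against 0.931% and 0.381% of all probe sets. It was NDUFA13, a subunit near the junction of the arms, named here for being the only call. Its signals were 774, 691 and 678 at 80 d, 974, 974 and 1234 at 100 d, 1775, 1330.4 and 1301 at 120 d, 4194, 3439.5 and 3474 at 150 d and 4008, 4156 and 3844 at 230 d. The stages followed each other without overlap up to 150 d. NDUFA13 rose by 1.03 between 80 d and 120 d (standard error 0.18, adjusted p = 0.0071), a limma call lost in 11 of 15 fits that left out 1 array, among them each array of 80 d and 120 d.

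**Figure D5:**
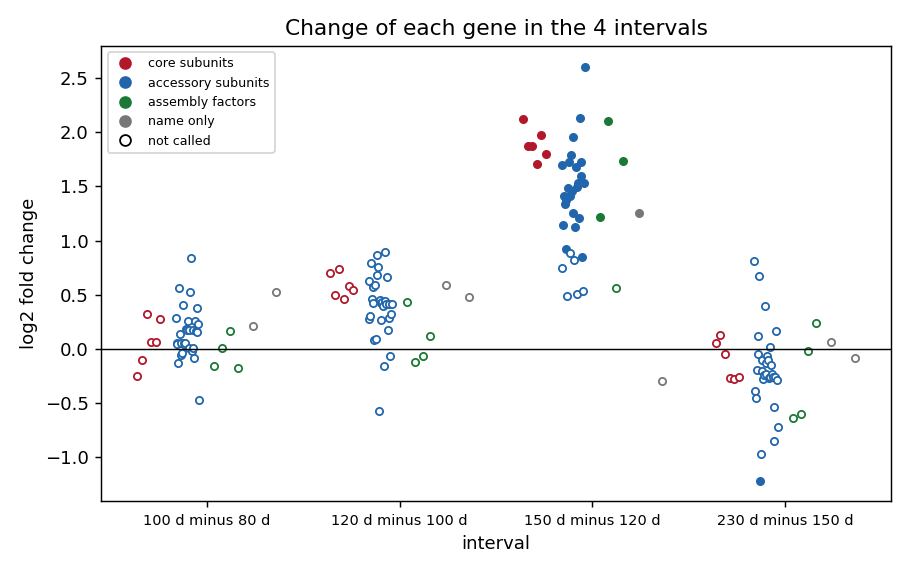
Log2 fold change of each of the 42 genes in the 4 intervals between neighbouring stages, coloured by class, with filled points for genes that passed the test (adjusted p under 0.01). Of 42 values, 37 lie above 0 in the second interval and 41 in the third, and 32 lie below 0 in the last.

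Between 150 d and 230 d few genes passed the test. No member rose and 1 fell, against 0.944% and 1.08% of all probe sets. The median log2 fold change was -0.22 beside 0.07 for all probe sets, and 32 of 42 values were negative. At an unadjusted p under 0.05, 2 of 42 members were higher and 6 lower, against 3648 of 15998 probe sets in either direction. Of all probe sets 151 rose and 173 fell, against 74 and 234 with array medians set equal and 31 and 177 on the scale of the hybridisation controls. The 3 values did not overlap in 8 members lower and 2 higher at 230 d, against 9.93% and 14.0%. The member that fell was NDUFA5, by the probe set that represents it, by 1.22 on the log2 scale (standard error 0.23, adjusted p = 0.0091). This limma call was lost in 14 of 15 fits that left out 1 array, and its second probe set gave -0.30 (adjusted p = 0.42).

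Next lowest in that interval were NDUFA6, a LYR protein that binds NDUFAB1, and NDUFC2, of the membrane arm. NDUFA6 had signals of 2383, 3469.6 and 2463 at 230 d and 6506, 6305 and 3735 at 150 d, a log2 fold change of -0.97 (adjusted p = 0.026). NDUFC2 had 3523, 3254 and 4311 at 230 d and 7279, 6607 and 6016 at 150 d, a log2 fold change of -0.85 (adjusted p = 0.012). Neither gene's values overlapped between the stages. The 2 members whose values were higher at 230 d without overlap were NDUFA1 (7102, 6312 and 9571 at 230 d, 4676, 3898 and 4369 at 150 d) and NDUFA3 (5432, 5277 and 6302 at 230 d, 3819.6, 2912 and 4047 at 150 d), both small membrane arm subunits. By the F-statistic NDUFA1 and NDUFA3 were called higher and NDUFA6, NDUFA10, NDUFC2 and NDUFAF3 lower, against 4.48% of all probe sets called higher and 5.85% lower. NDUFA5 was not called by it.

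Set against the last fetal stage, 31 members were higher at 230 d and 0 lower by the test, against 5.79% and 8.41% of all probe sets. Of the 34 genes that rose between 120 d and 150 d, 30 also passed here, and all 34 had a higher mean signal at 230 d than at 120 d, although on the scale of the hybridisation controls 6 of them were lower (NDUFA2, NDUFA6, NDUFA11, NDUFC2, NDUFS4 and NDUFAF3). The 4 that did not pass were NDUFA6, NDUFA11, NDUFS4 and NDUFAF3. The call that this comparison added was NDUFA1, with a log2 fold change of 1.56 (limma, adjusted p = 0.0035). The comparisons with 120 d share its 3 arrays. With arrays scaled to the hybridisation controls, 3 members rose and 2 fell, and of all probe sets 130 rose and 5759 fell, against 926 and 1346 as deposited.

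Within a stage, single arrays, each of 1 animal, stood low or high in many subunits together. At 120 d replicate 3 was the lowest of its stage in 29 of 36 subunits. At 150 d replicate 1 was the highest in 26 of 36, and at 230 d replicate 3 was the highest in 24 and replicate 1 the lowest in 20. The median signal of the whole array was 63.9, 68.85 and 59.5 for replicates 1 to 3 at 120 d. It was 64.8, 51.4 and 60.55 at 150 d and 65.25, 65.25 and 68.85 at 230 d. The same order was not counted over all probe sets, and the part of array-wide shifts in it was not tested. Without 120 d replicate 3, 29 members rose between 120 d and 150 d in place of 34, and without 150 d replicate 1 it was 31. On the log2 scale the median SD between replicates over the members was 0.13, 0.16, 0.22, 0.25 and 0.21 from 80 d to 230 d, against 0.27, 0.29, 0.31, 0.38 and 0.34 over all probe sets.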

How the data were processed

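The deposited values are the intensity of each probe set as a MAS5 signal on a linear scale, 1 array per animal. The authors subtracted background, summarised the probes to 1 value per probe set and brought each array to a mean of 200 (trimmed means here were 198 to 199). The version of MAS5 is not given in the sources. Scaling to a common mean makes each signal relative to the rest of the array, and sequence mismatch between sheep RNA and the cattle probes can lower a signal. Stages and replicate numbers came from the sample labels.

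Control probe sets (112) were removed, which left 24016, of which 13292 had 1 gene symbol, 86 several and 10638 none. Those that reached a signal of 50 on 3 or more arrays were kept (15998, 66.6%). Signals under 0.1 were set to 0.1 (2 values), and log2 was taken. The test was limma 3.58.1 (R 4.3.3, lmFit and eBayes without trend) on all 15 arrays, with 10 residual degrees of freedom and no covariates, for 4 neighbouring intervals and 2 wider spans. P-values were adjusted by Benjamini-Hochberg within a comparison, at 0.01. The single-interval test was the main one, and the F-statistic named in the methods an alternative. A log2 fold change is the difference between the mean log2 signals of 2 stages, and medians over a class are descriptions.

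Genes given array by array were the core subunits, the 5 accessory subunits with the largest and the 3 with the smallest change across birth, the assembly factors, the genes with the name only and any member called in another neighbouring interval. NDUFA1, NDUFA3, NDUFA6, NDUFA8, NDUFA13, NDUFB1, NDUFC2 and the second probe sets were added after their values were seen. Members and gene lists were chosen with earlier results of these data known. Replicates are separate animals, and their number limits the precision. The fit was tested on simulated data. The alternatives were other scalings, an offset of 16, other filters, the F-statistic, a trended robust fit, a threshold of 0.05, the arrays of an interval alone, the replicate number as a block, the mean of all probe sets of a gene, and leaving out each array. Matplotlib 3.10.9 (Python 3.11.15) drew the figures.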

Additional observations from a re-analysis of the deposited data

How the results depend on the processing

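Across birth the 34 calls were 13 when the hybridisation controls set the scale and 0 with the 6 arrays alone, and 29 to 34 when 1 array was left out. Under the other settings tried the count was within 1.5 times of 34. For 230 d against 120 d the 31 calls were 5 with the hybridisation controls, 8 with the 6 arrays alone, and 22 to 31 without 1 array. Between 80 d and 100 d the count of 0 became 4 by the F-statistic, and between 100 d and 120 d it became 23 by the F-statistic and 1 with a trended robust fit. Both stayed at 0 without any 1 array. For 230 d against 150 d the single call became 0 with quantile normalization, the hybridisation controls, no filter, the replicate block, the 6 arrays alone or the mean of all probe sets. It became 2 with an offset of 16 or the stricter filter, 6 by the F-statistic, and 3 with the trended fit or a threshold of 0.05, and 0 to 1 without 1 array. For 120 d against 80 d the single call became 0 with the hybridisation controls, no filter, the replicate block or the 6 arrays alone, 3 with quantile normalization or the stricter filter, 10 with the trended fit, 12 at a threshold of 0.05, and 0 to 2 without 1 array. The F-statistic was not run for the 2 wider spans. The cause was not tested, beyond the smaller number of arrays or the larger number of tests that some settings bring.

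The core median of 1.87 across birth was 1.47 after quantile normalization and 1.21 with the hybridisation controls, the accessory median of 1.41 was 1.09 and 0.76, and the assembly median of 1.47 was 0.82 with the hybridisation controls. Without 1 array they ran from 1.78 to 1.97, from 1.31 to 1.48 and from 1.37 to 1.55. Between 150 d and 230 d the hybridisation controls gave -0.42 for core and -0.50 for accessory subunits, and leaving out 1 array gave -0.26 to -0.08, -0.28 to -0.12 and -0.48 to -0.09 for core, accessory and assembly genes. Directions turned in uncalled genes, between 120 d and 150 d for NDUFA5 (-0.17), NDUFAF6 (-0.090), NDUFB5 (-0.15) and NDUFS5 (-0.12) with the hybridisation controls and for NDUFA4L2 (0.057) with the mean of all probe sets. With those controls NDUFA2 (-0.058) and NDUFC2 (-0.18), both called between 120 d and 230 d, turned as well.

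Deviations from the stage means correlated with a median of 0.035 (-0.053 to 0.207) over 30 pairs of same-numbered animals, 6 of them above 0.1, and of -0.018 (-0.196 to 0.118) over 60 pairs of different number, 3 of them above 0.1. For 9 of 15 arrays the closest array of another stage had the same number. The animals differ between stages, and the number was therefore not taken as a pairing of animals. Whether same-numbered arrays were handled together is not in the labels and was not tested. With it as a block, 72 of the 75 gene results followed kept their side of the threshold and 3 lost their call. Weak signals limit NDUFB5, NDUFAF5, NDUFAF6, NDUFAF8 and NDUFA4L2.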
